A study of Mus musculus with 2 samples.

Results

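The 9 genes described here encode 2 neurexins (Nrxn2 and Nrxn3), 3 neuroligins (Nlgn1, Nlgn2 and Nlgn3) and 4 leucine-rich repeat transmembrane proteins (Lrrtm1, Lrrtm2, Lrrtm3 and Lrrtm4). They were chosen by name, as presynaptic receptors and their postsynaptic partners, out of the 32285 genes in the count tables, and each of the 9 had a row. Single-cell RNA was read from dissected dorsal telencephalon, from which the cerebral cortex arises, of wild-type (WT) mice at embryonic day (E) 16.5. The 2 libraries, named WT replicate 1 and WT replicate 6, formed 1 group, and both were made with droplet-based 10x Genomics chemistry that reads transcripts from their polyadenylated end. The series was set up around loss of Dot1l, a histone methyltransferase, through Emx1-Cre, a driver active in the dorsal telencephalic lineage. The knockout was not analysed here, so no genotypes were compared, and the labels do not say whether the WT embryos carried Cre or floxed alleles, nor how many embryos went into a library.

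Neurexins sit in the presynaptic membrane and bind ligands across the synaptic cleft. Neuroligins and LRRTM proteins are postsynaptic adhesion molecules that bind neurexins and bring in scaffolds and receptors. In adult brain, Nlgn2 protein is found mainly at inhibitory synapses and Nlgn1 protein mainly at excitatory ones, while the LRRTM proteins are known from excitatory synapses. At E16.5 most cortical neurons are still migrating or extending axons and few synapses have formed, so the values below are transcript levels in young neurons and not a measure of synapses.

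Cells were assigned to classes by gates on marker transcripts, and the markers did not include any of the 9 genes. Of the 7219 (WT replicate 1) and 7352 (WT replicate 6) cells that passed the filters, 3818 and 4239 fell into 22 classes, 13 of them neuronal. The classes that carry most of what follows held 122 and 135 cells (layer 6 neurons), 173 and 181 (layer 5), 363 and 448 (newborn migrating excitatory neurons), 90 and 82 (Sst+ interneurons from the medial ganglionic eminence, MGE), 210 and 241 (MGE interneurons without Sst), 80 and 109 (caudal ganglionic eminence, CGE, interneurons), 200 and 180 (striatal neurons) and 36 and 35 (Cajal-Retzius cells). In each marker set checked, every gene was above its median level in the other classes, except 1 of 6 genes of the indirect-pathway striatal set, which had no transcript. The gates drew on these same sets, so this describes the gating and does not test the class names. The gates left 47.1% and 42.3% of cells without a class, and the gated cells held between 47.4% (Lrrtm3) and 52.7% (Lrrtm2) of each gene's unique molecular identifiers (UMIs, each standing for 1 captured transcript). Levels are in CPM, a gene's UMIs in a class scaled to the same class total, and the 2 values given for a class are its 2 libraries, WT replicate 1 first. "Higher" or "lower" is said of a tested gene only where the adjusted p was below 0.05. A gene is compared only with itself between classes, because long genes such as Nrxn3 (1612 kb in the RefSeq annotation of GRCm38.p6), Nlgn1 (911 kb) and Lrrtm4 (791 kb) gain counts if intronic reads are included, and whether they were was not stated.

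As a background for droplet data, in which free RNA enters every droplet, 5 non-neural classes that are not known to build synapses (microglia, endothelial cells, mural cells, fibroblasts and erythroid cells) gave 10 values per gene. Their median was 517 CPM for Nrxn3, 69.6 for Nlgn1, 36.1 for Nrxn2, 13.3 for Lrrtm4, 8.74 for Nlgn2, 4.83 for Nlgn3, 4.04 for Lrrtm3, 3.53 for Lrrtm1 and 2.74 for Lrrtm2. For Nrxn3 they ranged from 58.8 CPM in fibroblasts to 2884 CPM in the microglia of WT replicate 6, whose cells had a median of only 2337 UMIs. The summed level of 8 GABAergic marker genes in these classes ranged from 18.2 to 749 CPM and was highest in the same microglia.

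Among the neurexins, Nrxn3 divided the neurons into classes of high and of low level. CGE interneurons had 19174 and 22061 CPM, MGE interneurons without Sst 17444 and 18780, neurons of the dorsal lateral ganglionic eminence (LGE) 17200 and 18437, and Sst+ MGE interneurons 12674 and 13896. Striatal neurons of the indirect pathway followed with 11239 and 10098 CPM and those of the direct pathway with 6475 and 5542. Every GABAergic class was thus above every other neuron class in both libraries. Cycling progenitors of the ganglionic eminence already had 9684 and 8658 CPM. In the other neuron classes Nrxn3 stood between 28.4 CPM (newborn neurons, WT replicate 6) and 462 CPM (neurons gated on Nell1 and Sphkap, WT replicate 1), all below the non-neural median of 517 CPM. Nrxn2 differed much less between neurons: its highest class mean, 274 CPM ± 72.1 (SD, n = 2 libraries) in Sst+ MGE interneurons, was 2.15 times its lowest, 127 CPM ± 14.2 in newborn excitatory neurons. Most neighbouring classes in that order overlapped between libraries, and WT replicate 6 was the higher library in 12 of 13 neuron classes.

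Of the neuroligins, Nlgn1 was graded across the excitatory classes. Layer 6 neurons had 3778 and 3211 CPM, layer 5 neurons 2693 and 2769, the Nell1 and Sphkap neurons 1916 and 1837, excitatory neurons without a layer gate 1664 and 1684, and newborn neurons 685 and 805. No value of one of these classes overlapped the next. Of the 83 Nell1 and Sphkap cells, 0 lay in a cluster held mainly by their own gate. Excitatory neurons gated on Tfap2d followed with 601 and 603 CPM, and interneurons, dorsal LGE neurons and direct-pathway striatal neurons lay together between 384 and 618 CPM. Indirect-pathway striatal neurons had 221 and 78.9 CPM, and Cajal-Retzius cells, the transient Reln-secreting neurons of the cortical surface, had 57.8 and 52.0 CPM, below the non-neural median for this gene. Radial glia, the cortical stem cells, had 1048 and 944 CPM of Nlgn1, without overlap with newborn neurons. Nlgn2 and Nlgn3 were nearly flat: over the 13 neuron classes the highest class mean was 1.96 times the lowest for Nlgn2 (68.8 CPM in MGE interneurons without Sst against 35.1 in Cajal-Retzius cells) and 2.44 times for Nlgn3 (63.8 CPM in Cajal-Retzius cells against 26.1 in indirect-pathway striatal neurons).

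**Figure D1:**
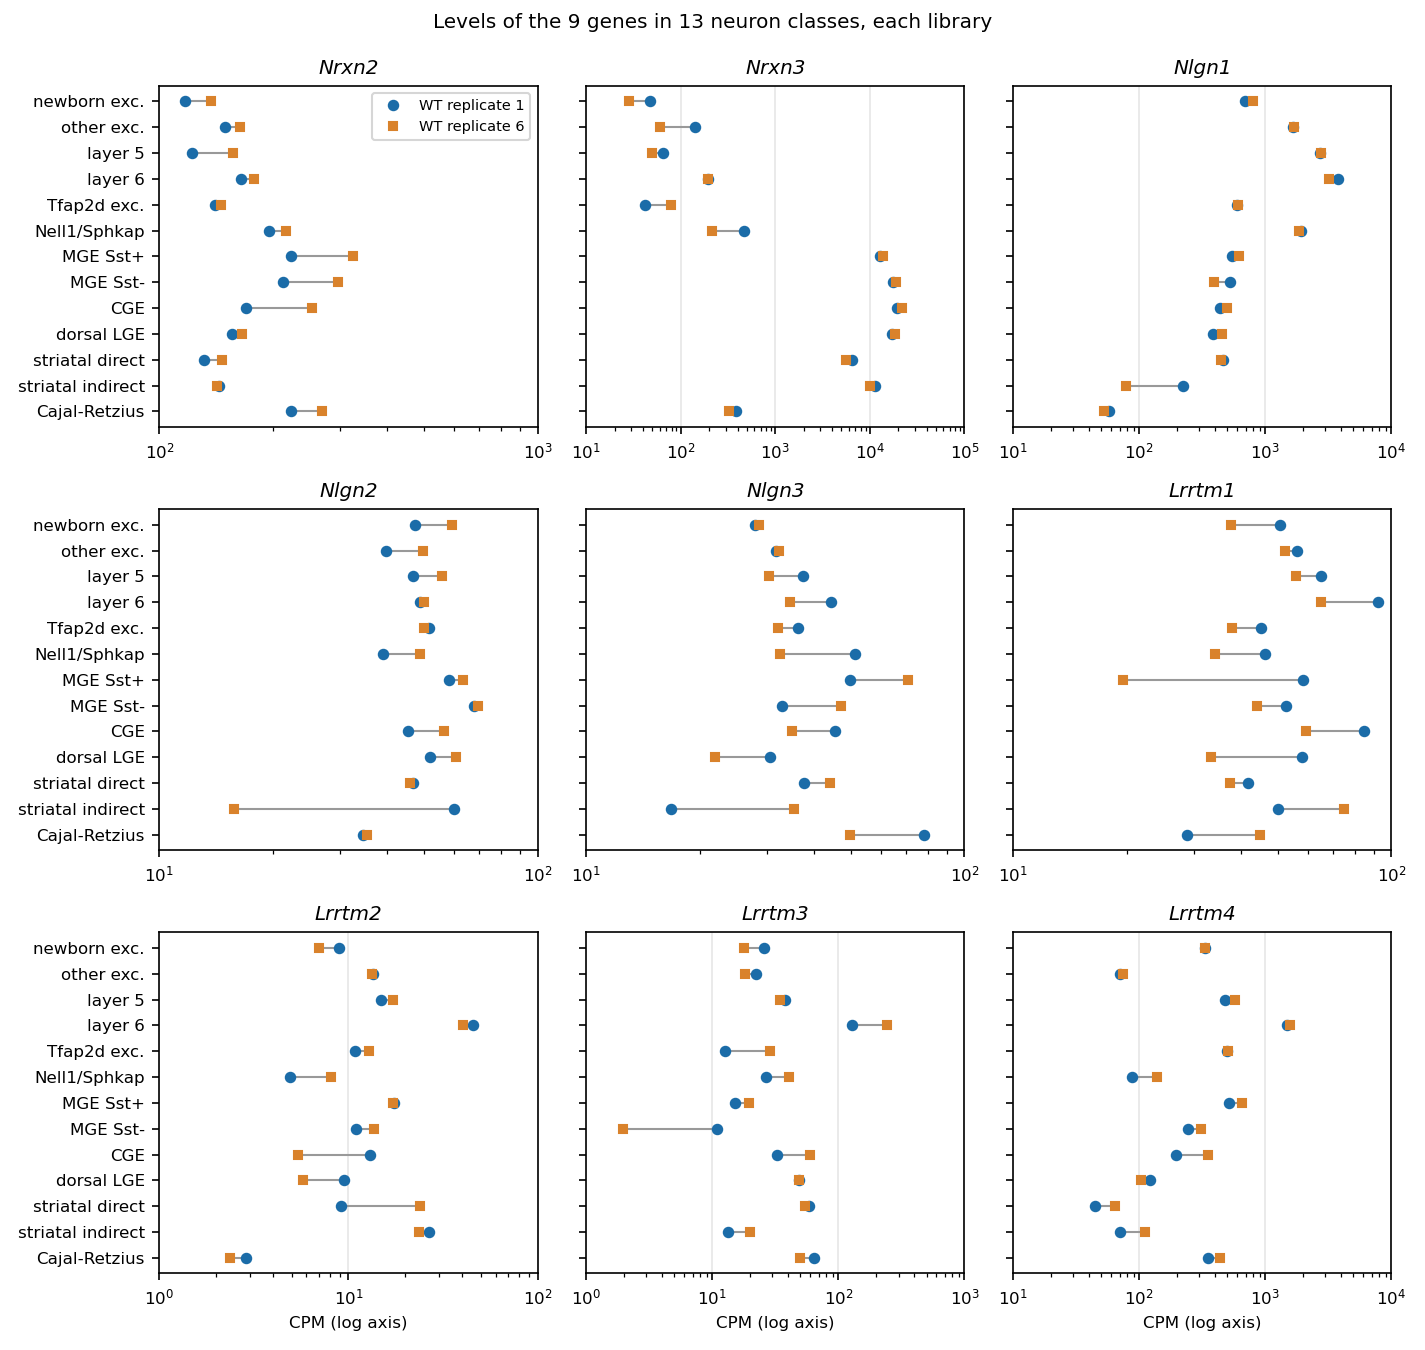
Level of each of the 9 genes in 13 neuron classes, in CPM on a log axis whose range differs between genes, with a circle for WT replicate 1, a square for WT replicate 6 and a grey line joining them. Nrxn3 reaches 5542 to 22061 CPM in the 6 GABAergic classes and at most 462 CPM elsewhere, and layer 6 holds the highest class mean of Nlgn1 and of the 4 Lrrtm genes.

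The 4 Lrrtm genes all had their highest class mean in layer 6 neurons, deep-layer cells of which many project to the thalamus, but their order over the other neuron classes was not alike. Lrrtm4 had 1484 and 1572 CPM in layer 6 and then a second tier in Sst+ MGE interneurons (513 and 650), layer 5 neurons (478 and 575) and Tfap2d neurons (499 and 503). These 3 classes overlapped each other. Cajal-Retzius cells (350 and 435 CPM) and newborn neurons (333 and 334) followed, while MGE interneurons without Sst (245 and 307) and CGE interneurons (195 and 348) overlapped each other. The dorsal LGE (122 and 104) and the indirect (70.4 and 110) and direct (44.3 and 64.6) striatal classes had the lowest levels among GABAergic neurons. Excitatory neurons without a layer gate had only 69.7 and 73.9 CPM of Lrrtm4, less than the newborn neurons and less than the intermediate progenitors (178 and 219 CPM). Such progenitors are dividing cells that give rise to cortical neurons. Their gate, on Eomes, required no cycling marker and did not limit excitatory neuron markers. The 9 excitatory neuron markers summed to 1240 and 1297 CPM in this class and 164 and 174 in radial glia. Radial glia had 8.89 and 12.5 CPM, below the non-neural median.

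Lrrtm3 had 128 and 243 CPM in layer 6 (115 and 253 UMIs), the only neuron class above 64 CPM, with WT replicate 6 the higher library. Cajal-Retzius cells had 63.5 and 49.7 CPM, direct-pathway striatal neurons 58.6 and 54.4, dorsal LGE neurons 48.7 and 48.4, CGE interneurons 32.5 and 59.3 and layer 5 neurons 37.5 and 34.3. Indirect-pathway striatal neurons had 13.4 and 19.7 CPM, without overlap with the direct pathway, and MGE interneurons without Sst had the lowest class mean (10.96 and 1.96 CPM), within the non-neural range. Lrrtm2, a low gene throughout, had 45.6 and 40.3 CPM in layer 6, 26.8 and 23.7 in indirect-pathway striatal neurons and 14.9 and 17.1 in layer 5. In Cajal-Retzius cells it was seen with 1 UMI in each library. Lrrtm1 was the flattest of the 4: 92.2 and 65.3 CPM in layer 6, 84.6 and 59.3 in CGE interneurons, and a lowest class mean of 36.9 CPM in Cajal-Retzius cells, with each class overlapping the next in the order.

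**Figure D2:**
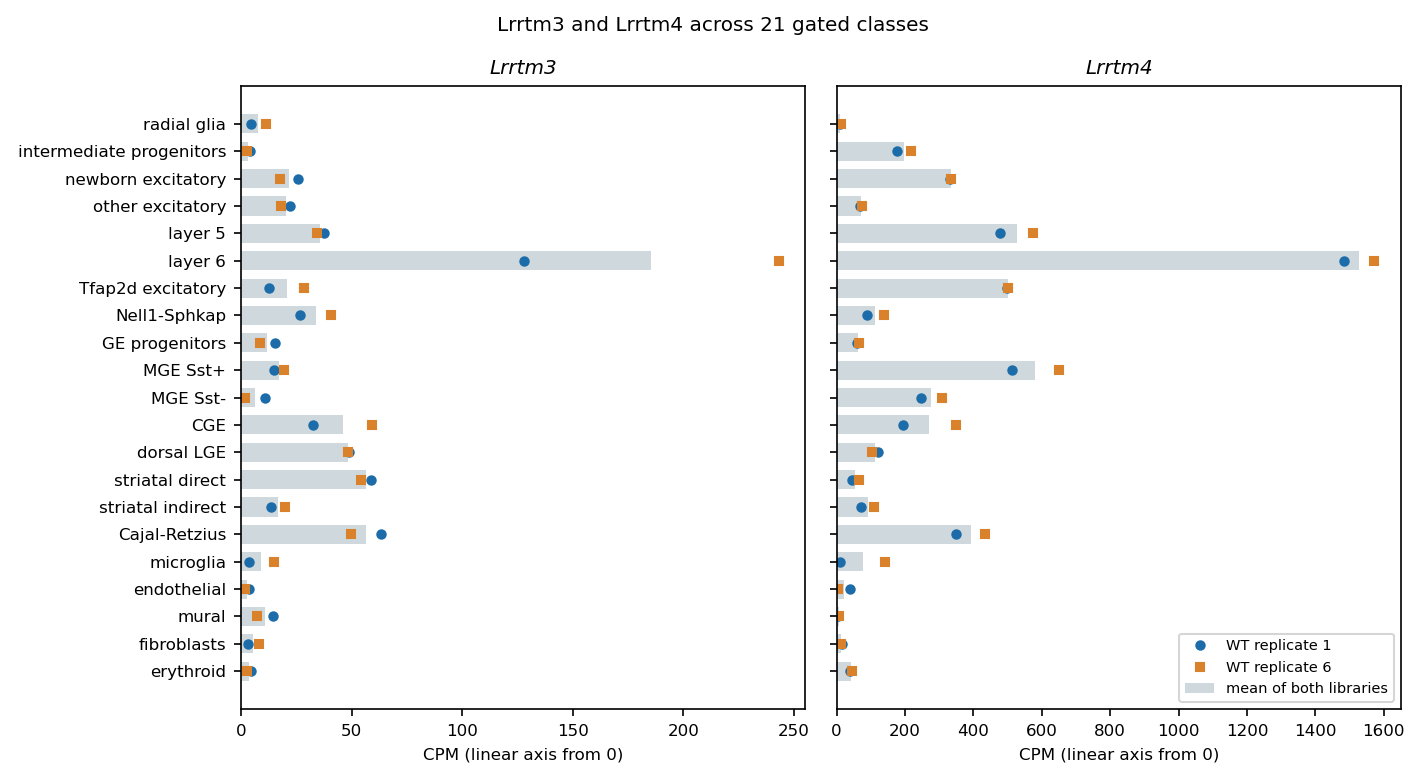
Lrrtm3 (left) and Lrrtm4 (right) in 21 gated classes, in CPM on a linear axis from 0, with grey bars for the mean of the 2 libraries and points for each library. Layer 6 stands above every other class for both genes, at 128 and 243 CPM for Lrrtm3 and 1484 and 1572 CPM for Lrrtm4.

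Lrrtm3 and Lrrtm4 were both higher in layer 6 than in layer 5, and their promoters are printed here to show what lies before each start, as the 250 bases before a RefSeq transcription start (GRCm38.p6), 5′ to 3′ on the gene's strand. Capitals mark matches to CANNTG, the E-box letters read by basic helix-loop-helix factors, searched on both strands. Lrrtm3 lies on the minus strand of chromosome 10, and its window is chr10:64090256-64090505. Lrrtm4 lies on the plus strand of chromosome 6, and its window is chr6:80018627-80018876. That window ends inside the span listed for the gene, which starts at 80018858, and its last marked match lies past that base.
Lrrtm3: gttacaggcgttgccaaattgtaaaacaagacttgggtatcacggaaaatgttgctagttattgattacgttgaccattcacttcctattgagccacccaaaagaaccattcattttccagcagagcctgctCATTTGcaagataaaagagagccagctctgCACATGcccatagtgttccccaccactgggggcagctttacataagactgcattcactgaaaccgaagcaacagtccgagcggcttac
Lrrtm4: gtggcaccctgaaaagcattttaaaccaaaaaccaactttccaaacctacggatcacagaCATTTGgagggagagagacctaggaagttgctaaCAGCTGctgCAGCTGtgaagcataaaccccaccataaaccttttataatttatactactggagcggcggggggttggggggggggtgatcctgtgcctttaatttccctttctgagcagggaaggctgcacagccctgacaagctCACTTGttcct

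The Lrrtm3 window held 2 such matches and the Lrrtm4 window 4, and 66.2% of 32851 promoter windows of the same length held at least 1. The letters TCACAC, the core read by T-box factors such as Tbr1, were in neither window and in 12.3% of all windows. These are descriptions of letters in a window, and nothing was measured at these promoters.

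The comparison of layer 6 with layer 5 neurons asked how the genes differ between the 2 gated deep-layer classes. Lrrtm3, Lrrtm4, Lrrtm2, Nrxn3 and Nlgn1 were higher in layer 6, and none of the 9 was lower (edgeR, with 0 lower at an unadjusted p below 0.05 and 0 lower with DESeq2). Over all 10191 genes tested, 6.93% were higher and 4.37% lower in layer 6, so 5 higher of 9 is above the share among all genes, and the median log2 difference of the 9 was 0.40 against 0.00 over all genes. Lrrtm3 was higher by a log2 difference of 2.41 ± 0.25 (SE; edgeR adjusted p = 2.16e-05), and the difference was 1.76 in WT replicate 1 alone and 2.81 in WT replicate 6 alone. Lrrtm4 was higher by 1.58 ± 0.11 (adjusted p = 1.06e-06) and Lrrtm2 by 1.45 ± 0.24 (adjusted p = 0.00143; up to 0.0644 over 8 alternative fits). Nlgn1 was higher by 0.39 ± 0.09 (adjusted p = 0.0148), a call lost in 4 of 8 alternative fits with p reaching 0.427. For Nrxn3, 193 and 194 CPM in layer 6 stood against 64.7 and 49.7 in layer 5 (log2 difference 1.79 ± 0.16, adjusted p = 5.72e-06, up to 0.0894 over the alternatives), all below the non-neural median. The 8 GABAergic markers summed to 34.5 and 27.9 CPM in layer 6 and 29.8 and 21 in layer 5, under a gate that limits them, with none at 0. Lrrtm1 was at 92.2 and 65.3 CPM against 65.2 and 55.8 (log2 0.40 ± 0.19, adjusted p = 0.218), and Nrxn2 (adjusted p = 0.17), Nlgn2 (0.979) and Nlgn3 (0.592) did not pass.

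Of the 34 other genes of the neurexin and neuroligin pathway, 26 were tested between layer 6 and layer 5, of which 8 were higher and 1 lower (median log2 difference 0.34). Over all genes 6.93% were higher and 4.37% lower. The largest differences were those of Nxph3, a secreted neurexophilin that binds neurexins (44.5 and 82.6 CPM against 2.06 and 2.76, log2 4.73 ± 0.41, edgeR adjusted p = 5.22e-06), and of Mdga2, a membrane protein that binds neuroligins and keeps neurexins from them (1997 and 1860 CPM against 376 and 398, log2 2.36 ± 0.11, adjusted p = 2.46e-08). Of 13 scaffold genes, 4 were higher and 9 did not pass. Layer 5 cells had median depths of 10407 and 9262 UMIs and layer 6 cells 4963 and 6378, and 98 of 354 layer 5 cells against 207 of 257 layer 6 cells lay in clusters held mainly by their own gate (concordant clusters). With only such cells Nlgn1 was no longer called (log2 0.36, edgeR adjusted p = 0.0961), while the fitted differences of Lrrtm3 and Lrrtm2 were 7.88 and 3.29 with few UMIs in layer 5. In cells of 3000 to 30000 UMIs the Nrxn3 difference was 1 on the log2 scale and was not called (adjusted p = 0.0894).

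The comparison of deep-layer with newborn neurons set layers 5 and 6 together against the migrating excitatory cells, which differ in layer identity as well as in age, and these cannot be told apart. In concordant clusters lay 324 of 811 newborn cells and 305 of 611 deep-layer cells. Here 6 of the 9 were higher and none lower (edgeR, with 0 lower at an unadjusted p below 0.05 and 0 lower with DESeq2), where 9.86% of 11546 genes were higher and 5.98% lower, and the median log2 difference of the 9 was 1.39 against -0.01 over all genes. Nlgn1 went from 685 and 805 CPM in newborn neurons to 3036 and 2930 in deep-layer neurons (log2 2.02 ± 0.09, edgeR adjusted p = 1.16e-07). Lrrtm4 went from 333 and 334 CPM to 796 and 939 (1.39 ± 0.10, adjusted p = 2.88e-06) and Lrrtm2 from 8.93 and 7.01 CPM to 24.6 and 25.6 (1.68 ± 0.23, adjusted p = 0.00039). Lrrtm3 went from 25.6 and 17.8 CPM to 66.1 and 110.5 (2.05 ± 0.25, adjusted p = 0.000163), with a difference of 1.36 in WT replicate 1 alone and 2.62 in WT replicate 6 alone. Lrrtm1 was higher by 0.62 ± 0.17 (adjusted p = 0.0285), which was lost in 3 of 8 alternative fits with p up to 0.273. Nrxn3 was higher by 1.48 ± 0.19 (edgeR adjusted p = 0.000242, up to 0.105 over the alternatives) at levels below the non-neural median. The 8 GABAergic markers, which the gates of both classes limit, summed to 31.3 and 23.5 CPM in deep-layer and 34.2 and 27.1 in newborn neurons. Their part in the Nrxn3 difference was not tested. Nlgn2 was at 47.4 and 53.7 CPM in deep-layer neurons and 47.4 and 59.3 in newborn ones. Neither Nlgn2 (adjusted p = 0.8) nor Nlgn3 (adjusted p = 0.203) passed, and Nrxn2 (adjusted p = 0.205) passed in 2 alternative fits, with the library as a block (log2 0.25, adjusted p = 0.0274) and with cells of concordant clusters (log2 0.55, adjusted p = 0.0243).

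In the pathway list 9 of 29 tested genes were higher in deep-layer neurons and 2 lower (median log2 difference 0.30), beside 9.86% and 5.98% of all genes. The largest were again Nxph3 (15.5 and 31.9 CPM against 0.776 and 0.956, log2 4.70 ± 0.54) and Mdga2 (888 and 932 CPM against 67.6 and 71.0, log2 3.73 ± 0.10).

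Interneurons (MGE and CGE) were compared with cortical excitatory neurons (newborn, layer 5, layer 6 and those without a layer gate) to see how the genes divide between inhibitory and excitatory cells. Of the 9, Nrxn3, Nrxn2 and Nlgn3 were higher in interneurons and Nlgn1 and Lrrtm3 lower, which at 3 and 2 of 9 stands beside 15.6% higher and 16% lower of 13216 genes. The median log2 difference of the 9 was -0.17 against -0.01 over all genes. Nrxn3 had 16450 and 18345 CPM in interneurons and 102 and 62.5 CPM in excitatory neurons, a log2 difference of 7.67 ± 0.24 (edgeR adjusted p = 1.43e-08), with the excitatory level below the non-neural median. Nlgn1 was lower in interneurons, at 514 and 463 CPM against 1822 and 1763 (-1.93 ± 0.10, adjusted p = 3.41e-07), and Lrrtm3 at 16.1 and 17.8 CPM against 37.5 and 44.3 (-1.32 ± 0.18, adjusted p = 0.000339). Layer 6 neurons held 115 and 253 of the 328 and 445 Lrrtm3 UMIs of excitatory neurons. Layer 5 neurons had 37.5 and 34.3 CPM, newborn neurons 25.6 and 17.8 and those without a layer gate 22.2 and 18.3. Among interneurons, CGE cells had 32.5 and 59.3 CPM, Sst+ MGE cells 15.2 and 19.6 and MGE cells without Sst 10.96 and 1.96. The lower Lrrtm3 thus did not hold for each subclass, and it was not tested by subclass. Nrxn2 was higher in interneurons by 0.74 ± 0.15 (adjusted p = 0.00466). Nlgn3 was higher by only 0.44 ± 0.14 (adjusted p = 0.0438), which was lost in 5 of 8 alternative fits with p reaching 0.538. Lrrtm4 did not pass (310 and 393 CPM against 383 and 401, log2 -0.21 ± 0.12, adjusted p = 0.225; 0.045 without the filter on low counts). Nlgn2 was at 61.2 and 65.6 CPM against 44.5 and 53.9, which passed with the library as a block (adjusted p = 0.0411) and not without it (adjusted p = 0.0915). Lrrtm1 (adjusted p = 0.507) and Lrrtm2 (adjusted p = 0.328) did not pass.

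Pathway genes moved in both directions between these classes, with 13 of 32 tested higher and 9 lower in interneurons, beside 15.6% and 16% of all genes. The secreted ligands Nxph1 (2853 and 3416 CPM against 10.4 and 7.97, log2 8.37 ± 0.17) and Nxph2 (118 and 142 CPM against 1.14 and 0.598, log2 7.17 ± 0.21) led, with the neurexin-binding carbonic anhydrase-related protein Car10 (32.7 and 42.2 CPM against 1.26 and 1.30, log2 4.80 ± 0.26). Both MDGA genes were lower, Mdga1 by a log2 difference of -4.74 ± 0.30 (4.76 and 1.11 CPM against 68.7 and 80.2). Mdga1 rested on 8 and 2 UMIs in interneurons and Nxph2 on 10 and 6 in excitatory neurons.

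**Figure D3:**
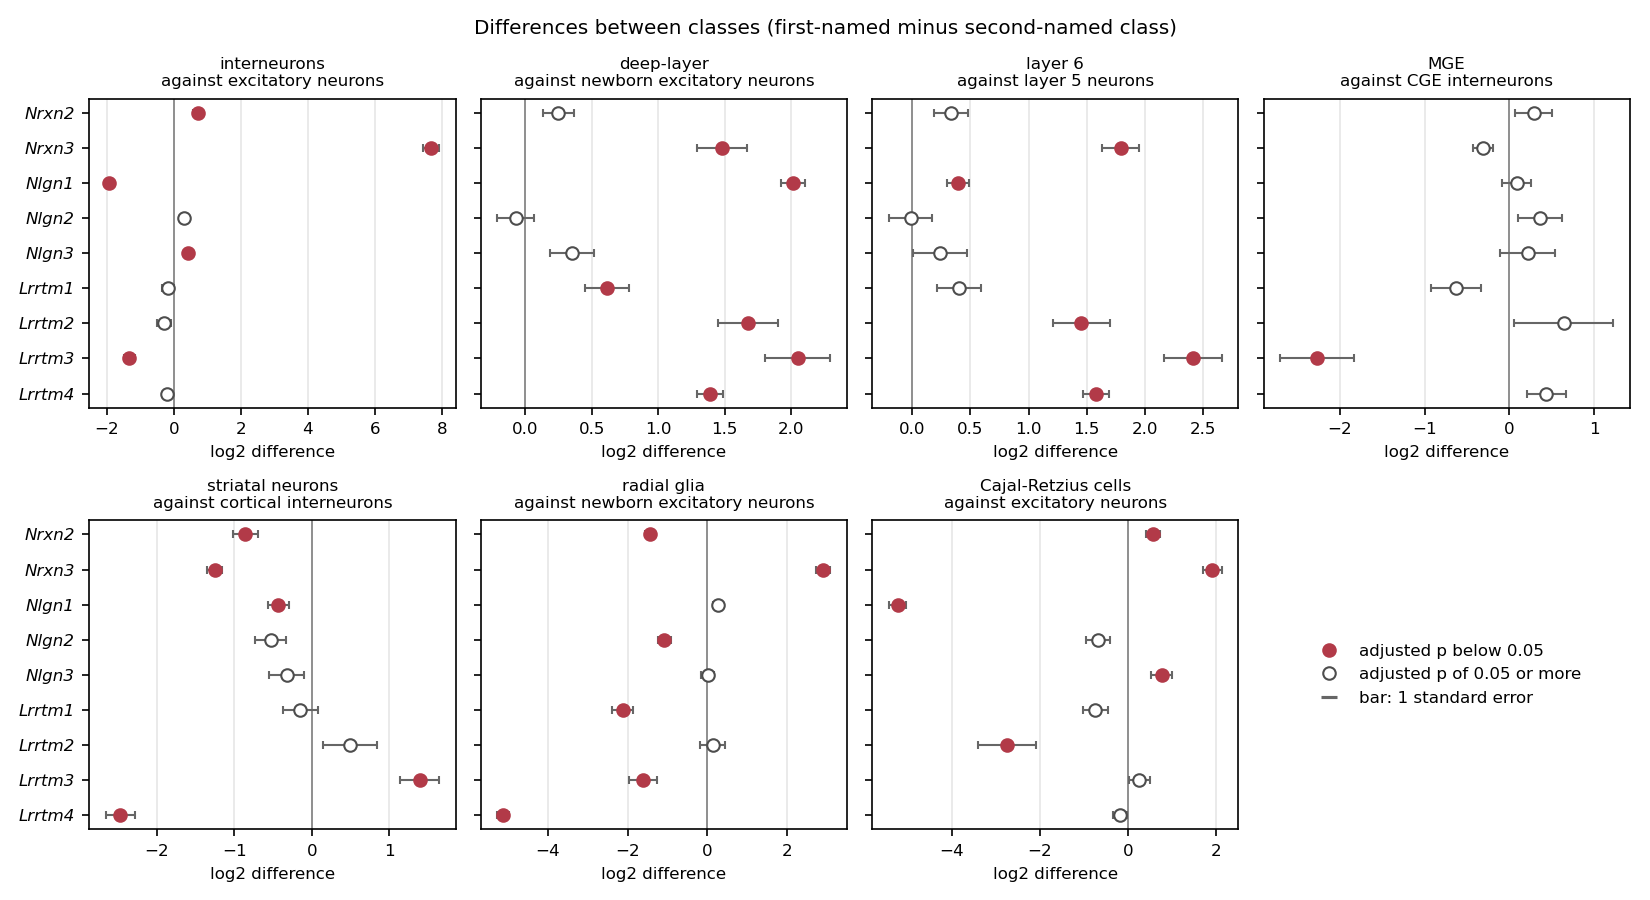
Log2 difference of each gene in 7 comparisons, first-named minus second-named class, with bars of 1 standard error, filled circles for an adjusted p below 0.05 and open circles otherwise, and an axis range that differs between panels. The Lrrtm genes lie on the right in the 2 panels of excitatory neurons, up to 2.41 for Lrrtm3, and Lrrtm4 lies at -5.12 in radial glia and -2.47 in striatal neurons.

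MGE and CGE interneurons, the 2 main lineages that migrate into the cortex, differed in 1 of the 9 genes. Lrrtm3 was lower in MGE interneurons (12.4 and 7 CPM, from 17 and 10 UMIs, against 32.5 and 59.3 CPM, from 10 and 22 UMIs), by a log2 difference of -2.27 ± 0.44 (edgeR adjusted p = 0.00595, up to 0.0721 over 8 alternative fits). The difference was -1.36 in WT replicate 1 alone and -2.98 in WT replicate 6 alone. Few cells held the gene: without thinning, 2.67% and 0.929% of MGE cells and 7.5% and 6.42% of CGE cells had a Lrrtm3 UMI. In Sst+ MGE interneurons, 7 and 8 UMIs lay in 1.11% and 1.22% of 90 and 82 cells. Among all 9069 genes 2.7% were higher and 2.88% lower, beside 0 and 1 of the 9 (edgeR gave 0 higher and 2 lower at an unadjusted p below 0.05, and DESeq2 called 0 of the 9). The median log2 difference was 0.21 for the 9 and 0.00 for all genes, and the other 8 members had adjusted p from 0.184 to 0.905. With the library as a block, 3 genes passed, since Nrxn3 (log2 -0.31, adjusted p = 1.23e-05) and Lrrtm4 (0.46, adjusted p = 0.0324) joined Lrrtm3. With cells of concordant clusters Nrxn3 (adjusted p = 0.0018) and Nlgn1 (log2 0.91, adjusted p = 0.00898) passed beside Lrrtm3. Within the MGE class Lrrtm4 was at 513 and 650 CPM in Sst+ cells and 245 and 307 in cells without Sst, and Nrxn3 at 12674 and 13896 against 17444 and 18780, in both cases without overlap between libraries, and these subclasses were not tested against each other. Of 24 pathway genes tested, 5 were higher and 1 lower in MGE interneurons. They included Nxph1 (3456 and 4252 CPM against 153 and 194, log2 4.46 ± 0.19) and Nxph2, with 453 UMIs in MGE and 1 UMI in CGE interneurons (ratio 109.6, 95% exact interval 19.6 to 4338, counting error only).

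Striatal neurons, GABAergic projection neurons from outside the cortex, were compared with cortical interneurons. Lrrtm3 was higher in striatal neurons, and Lrrtm4, Nrxn3, Nrxn2 and Nlgn1 were lower, so 1 and 4 of 9 stand beside 6.55% higher and 8.24% lower of 10259 genes. The median log2 difference was -0.43 for the 9 and -0.01 for all genes. Lrrtm4 had 51.6 and 78.4 CPM in striatal neurons against 310 and 393 in interneurons (log2 -2.47 ± 0.19, edgeR adjusted p = 2.38e-07). Lrrtm3 went the other way, at 45.9 and 43.9 CPM against 16.1 and 17.8 (1.39 ± 0.25, adjusted p = 0.00114, up to 0.0502 over 8 alternative fits). Nrxn3 was at 7808 and 6914 CPM against 16450 and 18345 (-1.26 ± 0.09, adjusted p = 2.36e-07, up to 0.133 over the alternatives) and Nrxn2 at 135 and 145 CPM against 208 and 294 (-0.86 ± 0.16, adjusted p = 0.00176). Nlgn1 differed by -0.43 ± 0.14 (adjusted p = 0.0485), a call lost in 5 of 8 alternative fits with p up to 0.245. Direct-pathway neurons had 460 and 449 CPM of Nlgn1 and indirect-pathway neurons 221 and 78.9 (66 and 20 UMIs), against 514 and 463 in interneurons. For Lrrtm3, direct-pathway neurons had 58.6 and 54.4 CPM and indirect-pathway neurons 13.4 and 19.7 (4 and 5 UMIs). Among interneurons, CGE cells had 32.5 and 59.3 CPM of Lrrtm3, Sst+ MGE cells 15.2 and 19.6 and MGE cells without Sst 10.96 and 1.96. The higher Lrrtm3 of the pooled striatal class thus did not hold for each subclass, and it was not tested by subclass. Nlgn2 passed only with the library as a block (log2 -0.54, adjusted p = 0.048), and Nlgn3 (0.432), Lrrtm1 (0.751) and Lrrtm2 (0.432) did not pass. In the pathway list 5 of 25 tested genes were higher and 5 lower, with Nxph1 (36.6 and 8.31 CPM against 2853 and 3416, log2 -7.06 ± 0.33), Nxph2 (-5.91 ± 0.33) and Car10 (-2.35 ± 0.35) the 3 that passed with a log2 difference of at least 2.

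Radial glia were compared with newborn excitatory neurons to set the genes against the start of neuronal life. In radial glia Nrxn3 was higher, and Lrrtm4, Lrrtm1, Lrrtm3, Nrxn2 and Nlgn2 were lower. The classes differed widely, with 31.2% of 12357 genes higher and 29.1% lower, beside 1 and 5 of the 9, whose median log2 difference was -1.08 against 0.00 over all genes. Lrrtm4 went from 8.89 and 12.5 CPM in radial glia to 333 and 334 in newborn neurons (log2 -5.12 ± 0.15, edgeR adjusted p = 4.57e-10). The class of intermediate progenitors lay between them at 178 and 219 CPM, and whether it mixes progenitors with young neurons was not tested. Lrrtm1 was at 14.4 and 7.78 CPM against 50.9 and 37.6 (-2.13 ± 0.26, adjusted p = 2.98e-05). Lrrtm3 was at 4.45 and 11.3 CPM against 25.6 and 17.8 (-1.62 ± 0.36, adjusted p = 0.0021), a difference of -2.48 in WT replicate 1 and of only -0.65 in WT replicate 6. The radial glial levels of these 3 genes were within the range of the non-neural classes. Nrxn2 (-1.45 ± 0.13) and Nlgn2 (-1.08 ± 0.16) were lower as well, Nlgn2 at 25.9 and 30.7 CPM against 47.4 and 59.3. Nrxn3 was higher in radial glia, at 326 and 302 CPM against 47.8 and 28.4 (2.91 ± 0.18, adjusted p = 9.33e-08), again below the non-neural median of 517 CPM. The 8 GABAergic markers, which the gates of both classes limit, summed to 64.8 and 58.4 CPM in radial glia and 34.2 and 27.1 in newborn neurons. Their part in the Nrxn3 difference was not tested.

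Nlgn1 had a log2 difference of 0.26 ± 0.12 between radial glia and newborn neurons, which did not pass (edgeR adjusted p = 0.08). It passed in 4 of 8 alternative fits, with the library as a block (adjusted p = 0.0045), without TMM scaling (0.00976), without the filter on low counts (0.0446) and with cells of concordant clusters (log2 0.95, adjusted p = 1.96e-06). Nlgn3 (adjusted p = 0.952) and Lrrtm2 (adjusted p = 0.734) did not pass either. Without the TMM scaling of library sizes the median over all genes moved by 0.16 on the log2 scale, and no member changed direction. In the pathway list 8 of 27 tested genes were higher in radial glia and 18 lower (median log2 difference -0.90). Over all genes 31.2% were higher and 29.1% lower, so the share of higher pathway genes was near that of all genes. Of 13 scaffold genes 11 were lower, among them Dlg2 (36.3 and 47.1 CPM against 549 and 481, log2 -3.79 ± 0.15). Clstn2, a calsyntenin that acts as a postsynaptic adhesion molecule, was lower (-4.72 ± 0.26), while the secreted C1q-like protein gene C1ql3 (3.85 ± 0.55, from 22 and 26 UMIs against 2 and 1) was higher.

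Cajal-Retzius cells were compared with excitatory neurons as another, early-born glutamatergic type. Nlgn1 and Lrrtm2 were lower in them and Nrxn3, Nrxn2 and Nlgn3 higher, 2 and 3 of 9 beside 12.6% lower and 12.4% higher of 13206 genes. The median log2 difference was -0.18 for the 9 and -0.05 for all genes. Nlgn1 had 57.8 and 52.0 CPM (20 and 22 UMIs) against 1822 and 1763 CPM, a log2 difference of -5.22 ± 0.20 (edgeR adjusted p = 1.9e-09). After thinning each cell to 2000 UMIs, 5.71% and 14.7% of Cajal-Retzius cells held a Nlgn1 UMI, against 69.8% and 69.1% of excitatory neurons and 2.5% to 20% in the non-neural classes. With the 30 suspected doublets of this class kept, the difference was -3.44 for Nlgn1 and -1.59 for Lrrtm2, both still called. Lrrtm2 rested on 1 UMI in each library (2 against 287 in excitatory neurons), a ratio of 0.170 with a 95% exact interval of 0.0205 to 0.621 for counting error only (adjusted p = 0.00883, up to 0.0604 over 8 alternative fits). Nrxn3 was at 384 and 327 CPM against 102 and 62.5 (1.92 ± 0.22, edgeR adjusted p = 3.08e-05), below the non-neural median. The gates of both classes limit the 8 GABAergic markers. Under these gates they summed to 31.8 and 21.3 CPM in Cajal-Retzius cells, with 2 of the 8 at 0, and 31.0 and 27.5 in excitatory neurons. Their part in the Nrxn3 difference was not tested. Nlgn3, at 78.0 and 49.7 CPM against 33.3 and 31.1 (0.77 ± 0.24, adjusted p = 0.0334), and Nrxn2 (0.58 ± 0.15, adjusted p = 0.0158) lost their calls in 3 and 2 of 8 alternative fits, with p up to 0.0813 and 0.0722. Lrrtm4 (350 and 435 CPM against 383 and 401, log2 -0.18 ± 0.16), Lrrtm3 (adjusted p = 0.469) and Nlgn2 (adjusted p = 0.0843) did not pass. Lrrtm1 did not pass (adjusted p = 0.0714) but did in 3 of 8 alternative fits, with the library as a block (log2 -0.72, adjusted p = 0.046), without the filter on low counts (0.0108) and with the stricter cell filter (0.0441). Nlgn2 passed without the filter on low counts (adjusted p = 0.0268) and with doublets kept (0.0492), and Lrrtm4 with doublets kept (log2 -0.48, adjusted p = 0.0439).

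Without TMM scaling, the median over all genes moved to 0.14 in the Cajal-Retzius comparison, and 64.1% of all called genes were then higher in Cajal-Retzius cells against 49.7% with it. No called member changed direction. Lrrtm4, which was not called, had nearly equal class means before this scaling, at 392.4 CPM in Cajal-Retzius cells and 392.1 in excitatory neurons. Of 31 pathway genes tested in the Cajal-Retzius comparison, 10 were higher and 7 lower, beside 12.4% and 12.6% of all genes. The neurexin-binding Car10 had 1560 and 1091 CPM in Cajal-Retzius cells against 1.26 and 1.30 in excitatory neurons (log2 9.80 ± 0.27), the highest pathway difference of any comparison. Nxph3 (110 and 106 CPM against 5.71 and 9.66, log2 3.60 ± 0.29) and Nxph4 (2.35 ± 0.45) were also higher, and of 8 ligand genes tested 5 were higher.

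Cells of different depth were also compared by the share with at least 1 UMI after thinning each to 2000 UMIs, which left out 3 and 1 shallower layer 6 cells. By this measure Lrrtm4 was seen in 71.4% and 76.1% of layer 6 cells, 41.0% and 47.2% of layer 5 cells, 37.8% and 37.6% of Tfap2d neurons and 33.8% and 41.3% of Sst+ MGE interneurons. Unthinned, the share was 79.5% and 83.7% in layer 6 and 56.1% and 61.9% in the deeper-read layer 5. In excitatory neurons without a layer gate the share was 11.3% and 6.88% and in radial glia 1.43% and 1.82%. As a background, mural cells had 1.25% and 1.25%, and the 5 non-neural classes ranged from 0% to 5%, both in endothelial cells. Lrrtm3 was seen in 16.8% and 28.4% of layer 6 cells and 5.78% and 5.06% of layer 5 cells, Lrrtm2 in 11.8% and 7.46% and in 1.16% and 2.81%. Nrxn3 was seen in 99.7% and 99.5% of interneurons. It was seen in 21.8% and 17.9% of layer 6 cells, against 10.0% and 8.75% of mural cells and 13.9% and 9.5% of erythroid cells, an order opposite to that of the CPM. Microglia had 20% and 40% and endothelial cells 15% and 2.86%, so no order is read from these shares.

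**Figure D4:**
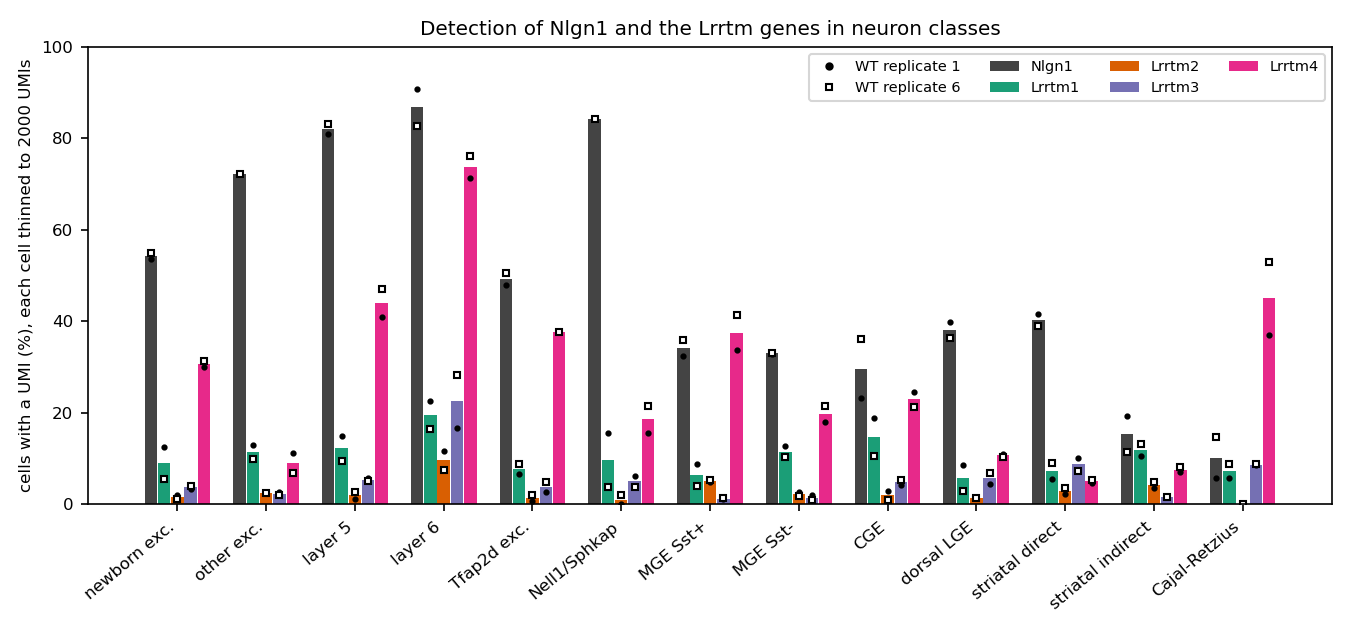
Share of cells with at least 1 UMI of Nlgn1 or a Lrrtm gene in 13 neuron classes after each cell was thinned to 2000 UMIs, with bars for the mean of the 2 libraries and points for each library. Layer 6 has the highest mean share for Nlgn1 (90.8% and 82.8%) and for the 4 Lrrtm genes (71.4% and 76.1% for Lrrtm4).

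Lrrtm1, Lrrtm2 and Lrrtm3 each lie inside an alpha-catenin gene and on its opposite strand. In GRCm38.p6 Lrrtm3 (chromosome 10, 63928497 to 64090255) is within Ctnna3 (63430098 to 65003667), Lrrtm1 (chromosome 6, 77229210 to 77259915) within Ctnna2 (76881637 to 77979815) and Lrrtm2 (chromosome 18, 35209003 to 35215024) within Ctnna1 (35118902 to 35254776). In the GENCODE annotation of GRCm39, distinct exon intervals were pooled over all transcripts of a gene, so variants of 1 exon count separately. None of the 15 intervals of Lrrtm1 and none of the 11 of Lrrtm3 overlaps an exon of its host. Of the 5 Lrrtm2 intervals, 3 do. The chemistry keeps the strand, but the counting setting was not stated, so reads of a gene and of its host on the other strand could not be told apart here. Lrrtm4 (chromosome 6, 80018858 to 80810162) was not in such a pair. The others lie on chromosome 19 (Nrxn2, 6418756 to 6533217), chromosome 12 (Nrxn3, 88722701 to 90334935), chromosome 3 (Nlgn1, 25421808 to 26332866), chromosome 11 (Nlgn2, 69823123 to 69837784) and chromosome X (Nlgn3, 101299179 to 101321350).

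Lrrtm3 followed Ctnna3 from class to class. Ctnna3 had 231 and 325 CPM in layer 6 against 51.9 and 44.2 in layer 5 (log2 2.57 ± 0.17, edgeR adjusted p = 6.12e-07), was lower in MGE than in CGE interneurons (18.2 and 6.30 CPM against 65.1 and 110.5, log2 -2.86 ± 0.42) and higher in striatal neurons than in interneurons (95.6 and 61.8 CPM against 26.8 and 27.8, log2 1.53 ± 0.23). As a description across 13 neuron classes that share 2 libraries, the Pearson r of log2(CPM + 10) was 0.97 for Lrrtm3 and Ctnna3, and 0.96 without layer 6. Mural cells parted the pair, with 145 and 50.3 CPM of Ctnna3 and 14.4 and 7.40 CPM of Lrrtm3. Over the same classes r was 0.12 for Lrrtm1 and Ctnna2 and 0.12 for Lrrtm2 and Ctnna1. Over all 21 classes, which divide into neurons and other cells, r was 0.85 for Lrrtm3, 0.89 for Lrrtm1 and -0.35 for Lrrtm2 with their hosts. Lrrtm2 was higher in layer 6 than in layer 5 while Ctnna1 was at 30 and 22.1 CPM against 31.3 and 22.7 (log2 -0.03 ± 0.28).

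**Figure D5:**
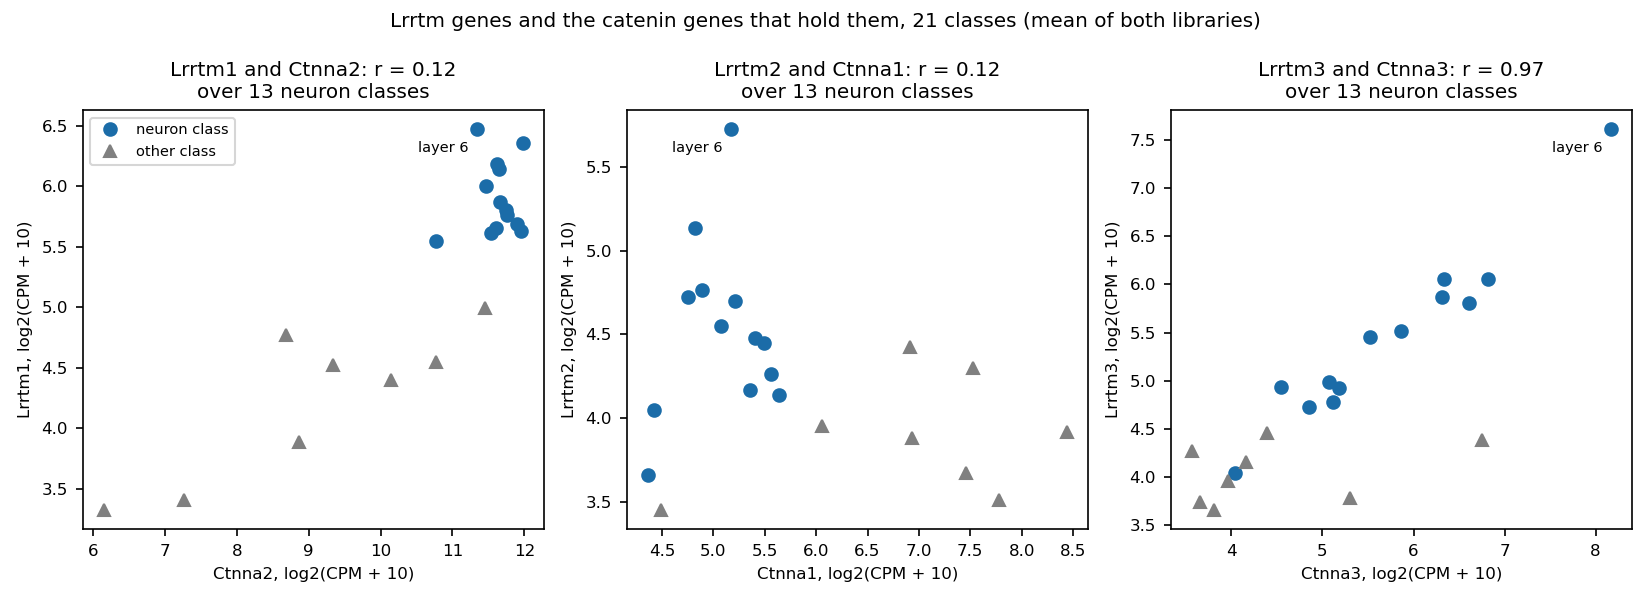
Level of 3 Lrrtm genes (vertical) against the catenin gene that holds each (horizontal), as log2(CPM + 10) of the mean of both libraries in 21 classes, with circles for neuron classes and triangles for other classes. Over the 13 neuron classes r is 0.97 for Lrrtm3 and Ctnna3 and 0.12 for each other pair, and over all 21 classes it is 0.85 for Lrrtm3, 0.89 for Lrrtm1 and -0.35 for Lrrtm2.

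Over 21 classes, genes most like the members by the Pearson r of log2(CPM + 10) are given as a description, since the classes share libraries and divide into neurons and other cells. For Nrxn3 these were Gad1, the GABA-synthesising enzyme (r = 0.96), Dlx6os1 (0.96) and Gm14204 (0.95), of which Gad1 and Dlx6os1 were also gate markers. Nrxn2 was most like Tspyl4 (0.96), Nlgn2 like Zfp30 (0.95), and Nlgn3 like Pcsk1n (0.93), all with a higher class mean in every neuron class than any non-neural value. Nlgn1 was most like Celf2 (0.89), Lrrtm2 like Bach2 (0.84) and Lrrtm4 like the adhesion molecule Chl1 (0.89), Snap25 (0.87) and Chgb (0.85). Lrrtm3 was most like its host Ctnna3 (0.85), followed by B3galt2 (0.85) and Far1os (0.82).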

How the data were processed

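Per the labels, dissociated E16.5 dorsal telencephalon was run on droplet-based 10x Genomics chemistry. The submitters' processing notes name Cell Ranger 7.0.0 and build mm10, which the authors used to make the deposited tables. The values the authors deposited are UMI counts for each gene in each barcode, whole numbers without normalization. The libraries held 14136 and 13046 barcodes with 74930397 and 68964234 UMIs, 59 barcodes occurred in both, and their summed counts differed beyond sampling noise (chi-square per degree of freedom 26.3). The labels do not say that they came from separate litters, so p-values measure the spread between these libraries.

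The cell filter asked for 1500 to 60000 UMIs, less than 10% of them mitochondrial (8139 and 8209 cells passed). Doublets were scored by the Scrublet method, and the 920 and 857 highest-scoring cells were left out, a number that scaled with the barcodes of a library. Gates required several markers of a class (at least 2 for a subtype, 3 for most others and 5 for radial glia) and few of other classes, and these numbers were set after marker values had been seen. The 9 genes, the pathway list (34 genes), the markers and the tests were chosen with earlier results of these data known. The named-gene rule was the 9 members in every comparison, pathway genes past the test with a log2 difference of at least 2 (at most 4 a comparison), the 3 catenin genes and the 3 genes most like each member. Some genes that this rule would name are not reported here. Car10 and Car11 stand for the list's older symbols.

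UMIs were summed per library and class, since cells are not replicates, and classes were compared with edgeR 4.0.16 (quasi-likelihood test, two-sided, TMM, filterByExpr, R 4.3.3) each fit holding just its 2 classes, with Benjamini-Hochberg adjustment across every gene tested. Called means an adjusted p below 0.05. Each library gave a sum for either class, so the libraries pair the sums, and the deviations of such pairs correlated across genes (r from 0.13 to 0.28). A replicate block for the library, which leaves 1 residual degree of freedom, was therefore 1 of the alternative fits. Other alternatives were DESeq2 1.42.0, no TMM scaling, no filter, all gated classes in a single fit, doublets kept, cells of 3000 to 30000 UMIs with under 5% mitochondrial UMIs, and cells in Leiden clusters (scanpy 1.11.5) held mainly by their own gate. The tests were tried on simulated data. Detection is the share of cells with a UMI after thinning to 2000 UMIs. Intervals cover counting error only. Gene positions and promoters are from RefSeq (GRCm38.p6, the assembly called mm10), and exon overlaps from GENCODE on GRCm39. Oligodendrocyte precursors (23 and 4 cells) were left out of the likeness measure.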

Additional observations from a re-analysis of the deposited data

How the results depend on the processing

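Of the 63 combinations of 9 genes and 7 comparisons, 33 were called. Of these, 20 kept their call under all 8 alternative fits, 13 lost it under at least 1, none reversed, and all 33 had the same direction in both libraries. A further 11 were called under some alternative only. The number of members called moved by over 1.5 times under some alternative in 4 of the 7 comparisons. In the others it ranged from 4 to 6 (interneurons, 5 in edgeR), 4 to 7 (deep-layer, 6) and 6 to 7 (radial glia, 6). With DESeq2 they were 3 for layer 6 against layer 5 neurons, 0 for MGE against CGE interneurons, 3 for striatal neurons against interneurons and 3 for Cajal-Retzius cells against excitatory neurons, where edgeR gave 5, 1, 5 and 5. With all classes in a single fit there were 3 in the striatal and 3 in the Cajal-Retzius comparison, with the stricter cell filter 3 between layers 6 and 5, and with cells of concordant clusters 3 between MGE and CGE interneurons. With the library as a replicate block there were 3 between MGE and CGE interneurons, and the blocked calls that differed are given beside their results. Over all genes, DESeq2 called 2198 where edgeR called 4167 (interneurons against excitatory neurons), 845 against 1829 (deep-layer), 454 against 1151 (layer 6), 255 against 506 (MGE) and 762 against 1517 (striatal). The block gave 2745, 1852 and 768 for deep-layer, layer 6 and MGE, the single fit 2775 and 1216 for interneurons and deep-layer, and the stricter cell filter 578 and 235 for layer 6 and MGE. Besides the values given with the results, the fitted fold difference, before taking log2, moved by over 1.5 times in the following cases, given as log2 values. They were Nrxn3 in interneurons against excitatory neurons (8.33 with the stricter cell filter and 8.33 in concordant clusters), Nlgn1 in deep-layer neurons (2.86, clusters) and Lrrtm3 in MGE interneurons (-2.95, stricter filter). The others were Lrrtm1 in radial glia (-1.42, clusters), and in Cajal-Retzius cells Nlgn1 (-5.83 and -6.00, stricter filter and clusters) and Lrrtm2 (-8.90, stricter filter). The cause of these shifts was not tested. A single library gives differences with no test, from -5.20 to 8.20 over the members, and moved Lrrtm3 most, as given with the results. Low counts limit Lrrtm2 most, with 1205 UMIs in all kept cells.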
